A study of Mus musculus with 18 samples.

Results

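The 10 genes described here are transcription factors that build and maintain the insulin-secreting beta cell: Pdx1, Mafa, Nkx6-1, Mnx1, Neurod1, Nkx2-2, Isl1, Pax6, Foxa2 and Rfx6. They were taken by symbol from 24346 genes listed for each of 18 RNA sequencing libraries of isolated mouse islets, the hormone-secreting cell clusters of the pancreas, and all 10 were found. Their levels are given in FPKM, a fragment count scaled by transcript length and by the number of mapped fragments. All 10 passed the filter on low values, a level of at least 1 FPKM in at least 3 libraries, as did 12234 genes in all.

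All mice were of the C57BL/6 strain. The libraries formed 6 groups of 3. Islets with exon 2 of Cdh13 deleted came from mice aged 14 weeks after 6 weeks of high-fat diet, from mice aged 14 weeks on chow, and from mice aged 8 weeks on chow. Islets with exon 2 of Cdh13 floxed, that is flanked by the loxP sites at which Cre recombinase cuts, came from the same 3 conditions. The labels do not say how or in which cells exon 2 was deleted, whether floxed mice carried a Cre gene, or whether the libraries of a group stem from different animals; p-values therefore measure the spread between these libraries, which may be technical. Cdh13 encodes T-cadherin, an adiponectin-binding cadherin without a transmembrane segment.

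These factors form a hierarchy. Foxa2, a forkhead protein, opens chromatin in the early gut tube and pancreas, Rfx6 and Neurod1 act as endocrine cells form, and Pax6, Isl1 and Nkx2-2 are kept in several adult islet cell types. Pdx1, Mafa, Nkx6-1 and Mnx1 are largely restricted to beta cells among adult islet cells, with Pdx1 also present in delta cells, and Pdx1, Neurod1 and Mafa bind the insulin promoter. Loss of several of them in adult mouse beta cells lowers insulin output or lets genes of other islet cells be expressed.

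Summed FPKM ranged from 903346 to 1394009 per library, and Ins2, the main insulin gene of mouse, held between 40.2% and 52.7% of that sum. The number of fragments is unknown, and the value of 1 fragment, estimated from low values, spanned 1.39 times between libraries. Libraries of the same group correlated across genes with Pearson's r of 0.981 to 0.991. Cdh13 itself was at 0.247 to 0.809 FPKM in the 9 deleted libraries, against 1.08 to 2.06 FPKM in the 9 floxed libraries, without overlap. Markers of other cell types also differed between groups, and their counts and sums are given with the comparisons.

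RefSeq promoter windows, 250 bases before to 50 bases after the start site in the GRCm38.p6 build, were held for 9 of the 10 members (12 windows, since Pax6 and Foxa2 have several). The windows of Pdx1, Neurod1 and Isl1 are shown because these genes had the smallest p-values between genotypes on the high-fat diet, and that of Nkx6-1 because this gene differed with diet in both genotypes and did not pass between genotypes. Capitals mark CANNTG, the E-box bound by helix-loop-helix proteins such as Neurod1, and TAAT, the homeodomain core bound by proteins such as Pdx1, Nkx6-1, Isl1 and Pax6; both strands were searched, so that ATTA marks TAAT on the other strand, and in these windows no match of one motif overlapped a match of the other. Each sequence is written on the strand of its gene.
Pdx1, chr5:147269847-147270146, plus strand: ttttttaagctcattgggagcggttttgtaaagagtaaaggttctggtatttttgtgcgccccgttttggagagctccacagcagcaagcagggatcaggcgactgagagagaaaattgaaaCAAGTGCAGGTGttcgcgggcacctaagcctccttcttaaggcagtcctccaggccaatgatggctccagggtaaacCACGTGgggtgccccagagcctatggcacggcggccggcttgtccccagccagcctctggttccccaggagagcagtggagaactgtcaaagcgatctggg
Neurod1, chr2:79456587-79456886, minus strand: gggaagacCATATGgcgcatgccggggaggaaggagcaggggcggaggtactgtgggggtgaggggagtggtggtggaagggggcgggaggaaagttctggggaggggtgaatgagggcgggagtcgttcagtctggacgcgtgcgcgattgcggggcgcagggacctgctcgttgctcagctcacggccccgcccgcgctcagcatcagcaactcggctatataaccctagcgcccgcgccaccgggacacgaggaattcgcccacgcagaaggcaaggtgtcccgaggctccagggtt
Isl1, chr13:116309639-116309938, minus strand: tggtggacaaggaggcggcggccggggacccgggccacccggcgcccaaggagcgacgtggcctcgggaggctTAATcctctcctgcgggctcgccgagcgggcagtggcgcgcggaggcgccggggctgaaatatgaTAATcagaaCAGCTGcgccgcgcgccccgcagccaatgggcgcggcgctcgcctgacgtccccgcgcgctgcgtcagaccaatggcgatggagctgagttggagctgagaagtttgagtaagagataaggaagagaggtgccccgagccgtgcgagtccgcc
Nkx6-1, chr5:101664662-101664961, minus strand: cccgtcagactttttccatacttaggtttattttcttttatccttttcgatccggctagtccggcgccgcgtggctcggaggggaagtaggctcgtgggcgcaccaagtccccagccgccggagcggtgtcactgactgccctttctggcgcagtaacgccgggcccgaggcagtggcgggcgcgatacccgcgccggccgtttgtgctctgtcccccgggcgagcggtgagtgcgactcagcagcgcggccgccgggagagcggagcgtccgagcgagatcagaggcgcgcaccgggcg

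The Pdx1 window held 3 E-boxes, 2 of them adjacent, and no TAAT. The Neurod1 window held 1 E-box and no TAAT, and the Isl1 window held 1 E-box and 2 TAAT. Neither motif occurred in the Nkx6-1 window, a statement about these letters in this window only. RefSeq start sites and the gene starts of the mm10 annotation given below differ for some members. The Nkx6-1 window lies wholly inside the annotated gene, chr5:101658139-101664996, so it holds no bases before that annotated start. Most bases of the Pdx1 and Neurod1 windows also lie inside the annotated genes, and the Rfx6 window lies wholly inside its gene. Over the 12 windows of members, TAAT was in 8 (66.7%), against 58.0% of all 32851 windows, and CANNTG was in 8 (66.7%), against 72.3%. The forkhead motif TGTTTAC, searched on both strands, was in 0 of 12 windows of members, against 3.65% of all windows.

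In the mm10 annotation the members lay on 5 chromosomes. Pdx1 spans chr5:147269959-147275848 on the plus strand in 2 exons, and Nkx6-1 and Mnx1 lie on the same chromosome at chr5:101658139-101664996 and chr5:29473034-29478470, both on the minus strand. Neurod1 (chr2:79452521-79456751, minus), Nkx2-2 (chr2:147177546-147194243, minus), Foxa2 (chr2:148042877-148046969, minus) and Pax6 (chr2:105668900-105697364, plus) share chromosome 2. Isl1 is at chr13:116298281-116309689 (minus), Mafa at chr15:75745490-75748228 (minus, 1 exon) and Rfx6 at chr10:51677756-51730432 (plus, 20 merged exons). The library preparation does not mark the strand, so reads of Nkx2-2 and of its antisense gene Nkx2-2os cannot be told apart over the 278 exon bases they share; Nkx2-2os averaged 0.517 FPKM. Neurod1 shares 201 exon bases with Cerkl, on the same strand, which averaged 10.8 FPKM.

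FPKM are scaled by length, so levels are set side by side between genes here as a description. The annotation behind the lengths is not given, and whether genes were recovered equally well was not tested. Neurod1, the helix-loop-helix activator of insulin transcription, had the highest mean over the 18 libraries, 87.3 FPKM (67.5 to 106). Isl1, a LIM-homeodomain factor, and Rfx6, a winged-helix factor, both averaged 65.4 FPKM, and Pax6, a paired-domain factor, averaged 53.3 FPKM. Foxa2 averaged 31.5 FPKM and Pdx1 24.96 FPKM. Nkx2-2 and Nkx6-1, a pair of NK homeodomain factors, averaged 11.6 and 10.4 FPKM. The lowest were Mnx1, a homeodomain factor, at 3.90 FPKM and Mafa, a bZIP factor that marks mature beta cells, at 1.83 FPKM. By mean level the members ran from the 13.5th percentile of the tested genes (Mafa) to the 91.4th (Neurod1).

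The members also differed in how closely libraries of a group resembled each other. The pooled standard deviation of log2(FPKM + 1) within groups was 0.056 for Pax6, 0.066 for Foxa2 and 0.074 for Isl1, against a median of 0.131 over the tested genes. For Mafa it was 0.425, higher than in 98.3% of tested genes, and Mafa ranged from 0.347 to 3.62 FPKM over the 18 libraries. Mnx1 (0.188) and Nkx2-2 (0.163) were also above the median, so that differences of the same size were less resolvable for these 3 genes.

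**Figure D1:**
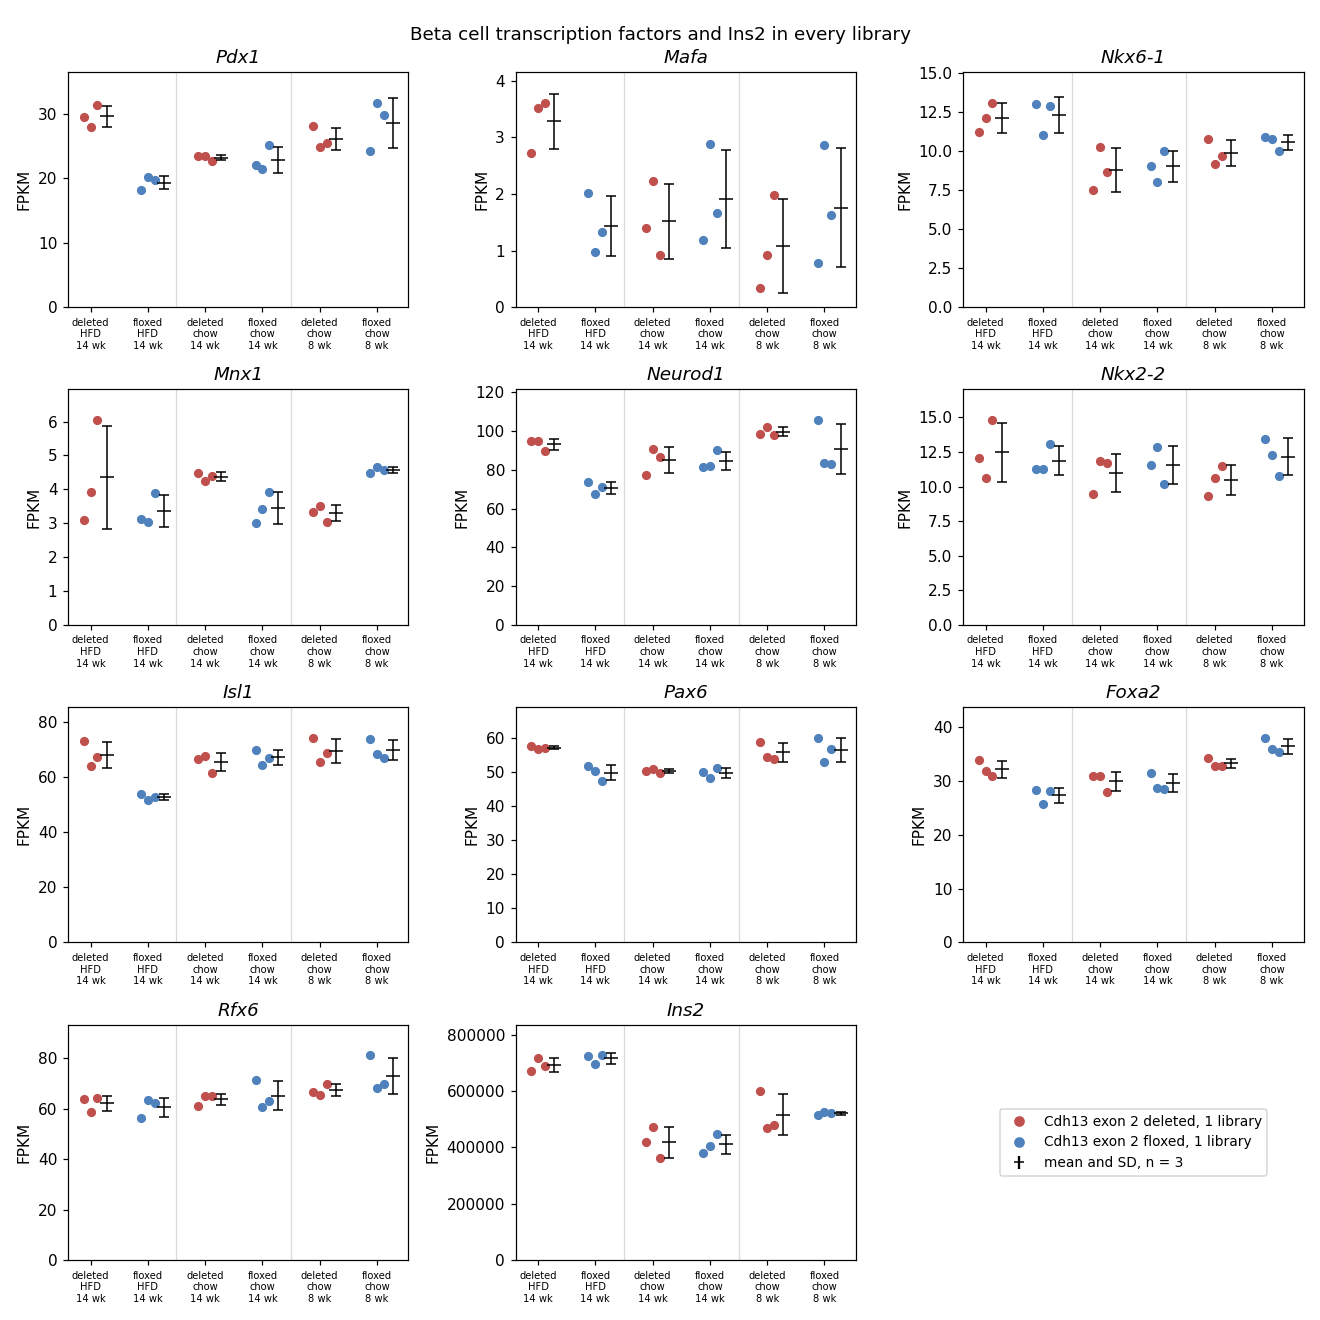
FPKM of the 10 transcription factors and Ins2 (vertical axes, from 0) in every library of the 6 groups (horizontal axis); points are libraries, the horizontal dash and bar are the mean and SD of 3 libraries. Pdx1, Neurod1, Isl1, Pax6, Foxa2 and Mafa are higher in all 3 deleted than in all 3 floxed libraries on the high-fat diet, and Ins2 and Nkx6-1 are highest in the high-fat diet groups of both genotypes.

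On the high-fat diet, deleted islets had more RNA of 5 of the 10 factors than floxed islets: Pdx1, Neurod1, Isl1, Pax6 and Foxa2. The differences ran from 0.20 to 0.59 on the log2(FPKM + 1) scale. Genes were tested with limma, and a gene was called at a Benjamini-Hochberg adjusted p below 0.05 over all 12234 tested genes. Called higher were 4.70% and called lower 6.02% of tested genes, and none of the members was called lower. Ins2 averaged 693373 ± 24241 FPKM in deleted islets and 715768 ± 17898.5 FPKM in floxed islets (SD, n = 3 each) and did not pass (difference -0.05 ± 0.10, SE, adjusted p = 0.824). Ins1 was at 30940, 32374 and 32203 FPKM in deleted islets, against 26457, 26568 and 28108 FPKM in floxed islets. These did not overlap, but the difference of 0.24 ± 0.10 did not pass (limma adjusted p = 0.127). Cdh13 was called lower (-0.69 ± 0.17, adjusted p = 0.0107), a call lost without deleted replicate 1 (0.0615). On chow Cdh13 did not pass at 14 weeks (-0.78 ± 0.17, adjusted p = 0.0674) or 8 weeks (-0.51 ± 0.17, 0.1795).

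Pdx1, required for pancreas formation and for adult beta cell identity, had the smallest p of the members. It was at 29.6, 27.96 and 31.3 FPKM in deleted islets on the high-fat diet, against 18.1, 20.1 and 19.7 FPKM in floxed islets. The lowest deleted library was above the highest floxed library, and the difference was 0.59 ± 0.09 (SE, limma adjusted p = 2.29e-04). This call held in each alternative run, the omission of any library included.

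Neurod1 and Isl1 showed the same order. Neurod1 was at 94.9, 94.7 and 89.9 FPKM in deleted islets, against 73.6, 67.5 and 71.0 FPKM in floxed islets (difference 0.39 ± 0.08, SE, limma adjusted p = 0.00321). Isl1, which binds the insulin promoter with Neurod1 and is also expressed in alpha, delta and PP cells, was at 73.2, 63.8 and 67.2 FPKM in deleted islets, against 54.0, 51.7 and 52.7 FPKM in floxed islets (0.36 ± 0.07, adjusted p = 0.00141). For both genes the groups were well apart, and both calls held in each alternative run.

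Foxa2 and Pax6 passed by a small margin. Foxa2 was at 33.9, 31.8 and 30.9 FPKM in deleted islets, against 28.2, 25.8 and 28.1 FPKM in floxed islets (0.23 ± 0.07, limma adjusted p = 0.0314). Pax6, which is needed in alpha and beta cells alike, was at 57.6, 56.8 and 57.2 FPKM in deleted islets, against 51.8, 50.3 and 47.5 FPKM in floxed islets (0.20 ± 0.06, adjusted p = 0.0375). Their groups did not overlap, but the Foxa2 call was lost without deleted replicate 1 (adjusted p = 0.132) or 2 (0.0677) or floxed replicate 2 (0.132) or 3 (0.0549). The Pax6 call was lost without any of the 3 deleted replicates or without floxed replicate 2 or 3 (adjusted p of 0.0775 to 0.154).

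Mafa was at 2.72, 3.51 and 3.62 FPKM in deleted islets on the high-fat diet, against 2.02, 0.974 and 1.32 FPKM in floxed islets. Its libraries did not overlap and its difference of 0.83 ± 0.31 was the largest of the members, but with its wide spread between replicates it did not pass (limma adjusted p = 0.0997). With the 2 high-fat diet groups alone in the fit it passed (adjusted p = 0.00756). In all, 6 of 10 members were higher without overlap between the groups, against 16.4% of tested genes.

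The other 4 members did not pass. Mnx1 was at 3.09, 3.92 and 6.04 FPKM in deleted islets, against 3.13, 3.04 and 3.89 FPKM in floxed islets (0.27 ± 0.14, limma adjusted p = 0.257), and its groups overlapped. Nkx2-2, Rfx6 and Nkx6-1 differed by 0.06 ± 0.12, 0.04 ± 0.07 and -0.02 ± 0.11 (adjusted p = 0.812, 0.811 and 0.943). The members restricted to beta cells had a median difference of 0.43 and those shared by endocrine cell types of 0.21, beside 0.01 over all tested genes, and 1 of 4 and 4 of 6 of them were called higher.

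**Figure D2:**
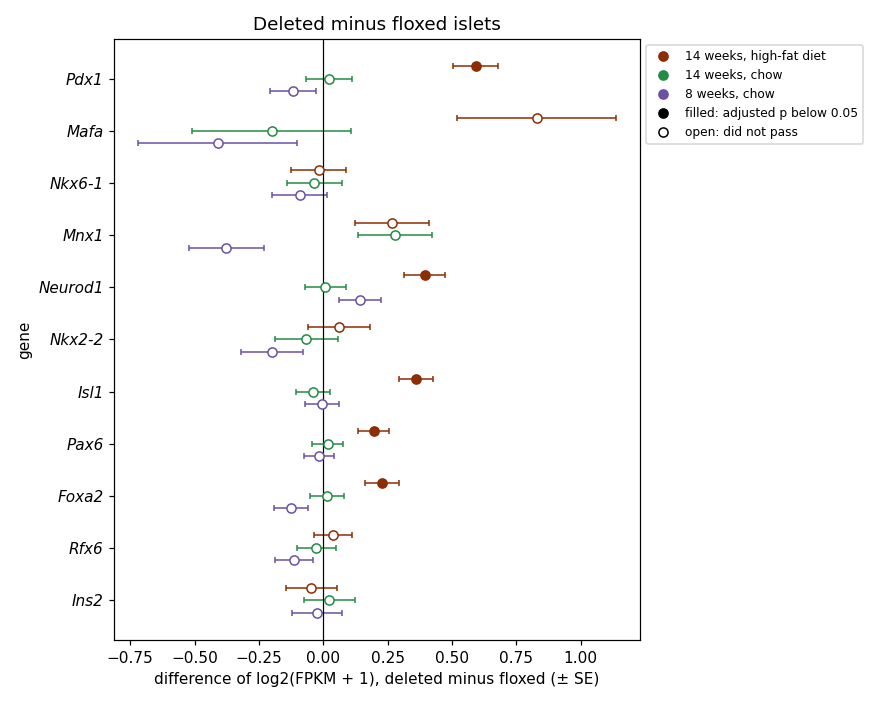
Difference of log2(FPKM + 1), deleted minus floxed (horizontal axis, points with SE bars, limma), for each transcription factor and Ins2 (vertical axis) in the 3 conditions, given by colour; filled points passed an adjusted p of 0.05. Filled points appear on the high-fat diet only, for Pdx1, Neurod1, Isl1, Pax6 and Foxa2.

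Other genes of the same programme were read from lists of endocrine transcription factors, cofactors and known target genes of these factors. Of 18 tested other endocrine transcription factors, 5 were higher and 0 lower in deleted islets on the high-fat diet, beside 4.70% and 6.02% of all tested genes. Hhex, which specifies delta cells, had a mean of 9.44 ± 0.45 FPKM in deleted islets, against 4.29 ± 0.36 FPKM in floxed islets (SD, n = 3 each; difference 0.98 ± 0.17, SE, limma adjusted p = 7.47e-04). Irx2, a factor of alpha cells, was higher by 0.80 ± 0.15 (adjusted p = 0.00168), and St18 by 0.35 ± 0.09 (adjusted p = 0.0157). St18 lost its call without deleted replicate 1 (adjusted p = 0.0656) or 3 (0.0632) or floxed replicate 2 (0.0510).

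Of 20 target genes, 7 were higher and 0 lower, beside 4.70% and 6.02% of all tested genes. Slc2a2, the glucose transporter of beta cells and a Pdx1 target, was at 60.3, 51.05 and 49.4 FPKM in deleted islets, against 28.2, 23.9 and 23.9 FPKM in floxed islets (1.05 ± 0.09, SE, limma adjusted p = 6.77e-07), so that its groups were far apart. Nnat, which aids insulin processing, had a mean of 10.1 ± 1.0 FPKM in deleted islets, against 3.02 ± 0.21 FPKM in floxed islets (SD, n = 3 each; 1.46 ± 0.16, SE, limma adjusted p = 7.91e-06). Pcsk2, the convertase with which alpha cells make glucagon, and Abcc8, a subunit of the ATP-sensitive potassium channel, were higher by 0.34 ± 0.06 and 0.36 ± 0.10 (adjusted p = 8.50e-04 and 0.0263). Abcc8 lost its call without deleted replicate 1 (adjusted p = 0.0987) or 3 (0.0684) or any of floxed replicates 1 (0.0625), 2 (0.0593) and 3 (0.0887). Of 10 cofactors 0 were higher and 1 was lower, the corepressor Tle1 (-0.38 ± 0.10, adjusted p = 0.0197), which lost its call without deleted replicate 2 (adjusted p = 0.0956) or floxed replicate 3 (0.0966).

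Markers of other cell types moved with these differences, where 4.70% of all tested genes were called higher and 6.02% lower. Of 9 tested alpha cell markers 5 were called higher and 1 lower, and their summed level was 36274 to 46718 FPKM in deleted islets, against 23570 to 28466 FPKM in floxed islets. Delta and PP cell markers were higher in 3 of 5, with overlapping sums of 21488 to 31690 FPKM in deleted and 17465 to 25270 FPKM in floxed islets. Most of these sums was Ppy, at 11810 to 21900 FPKM in deleted and 11100 to 18220 FPKM in floxed islets. Sst did not overlap, at 2556 to 2909 FPKM in deleted and 1423 to 1579 FPKM in floxed islets. Neither did Rbp4, at 248 to 284 FPKM in deleted and 111 to 140 FPKM in floxed islets. Hhex and Pyy were also higher in deleted islets without overlap. Endothelial markers were lower in 5 of 8, with sums of 102 to 106 FPKM in deleted and 124 to 157 FPKM in floxed islets, and cell cycle genes were lower in 5 of 7, with sums of 6.08 to 8.997 and 16.6 to 25.2 FPKM in deleted and floxed islets. Of 6 fibroblast markers 1 was lower, Pdgfrb (-0.67 ± 0.19, SE, limma adjusted p = 0.0261), all 6 had differences below 0, and the sums of 5.39 to 8.58 FPKM in deleted and 8.61 to 23.97 FPKM in floxed islets did not overlap. Of 8 macrophage markers 1 was lower (C1qa, -0.72 ± 0.10, adjusted p = 1.40e-04) and 1 higher (Lyz2, 0.34 ± 0.10, adjusted p = 0.0419), and of 9 acinar and 5 duct markers 0 were called. Irx2 and Hhex are members of these marker lists too. None of the defining markers Gcg, Sst and Pecam1 was at 0 in any library. The part of these markers in the transcription factor differences was not tested, and in bulk islets a larger number of cells of a type and more RNA per cell cannot be told apart.

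On chow at 14 weeks, none of the 10 members was called between deleted and floxed islets by limma (0 of 10 at an adjusted p below 0.05, and 0 of 10 at an unadjusted p below 0.05), where 0.114% of tested genes were called in either direction and 976 had an unadjusted p below 0.05. Differences ran from -0.20 ± 0.31 for Mafa to 0.28 ± 0.14 for Mnx1 (limma adjusted p = 0.981 and 0.686). Pdx1 had a mean of 23.2 ± 0.4 FPKM in deleted islets, against 22.9 ± 2.0 FPKM in floxed islets (SD, n = 3 each), a difference of 0.02 ± 0.09 (SE). Mnx1 was at 4.49, 4.24 and 4.40 FPKM in deleted islets, against 3.00, 3.43 and 3.93 FPKM in floxed islets, the single member without overlap, where 6.25% of tested genes were higher without overlap. Of the other transcription factors, cofactors and target genes tested (18, 10 and 20), 0 were called, nor was any cell type marker or cell cycle gene.

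At 8 weeks on chow 0 of 10 members were called by limma, against 0.548% of tested genes called in either direction, with 1 member and 1535 genes at an unadjusted p below 0.05. That member was Mnx1, at 3.34, 3.51 and 3.04 FPKM in deleted islets, against 4.49, 4.66 and 4.56 FPKM in floxed islets (-0.38 ± 0.14, SE, limma adjusted p = 0.264). Its 3 deleted libraries were all below the 3 floxed libraries, the opposite order to 14 weeks on chow. Foxa2 was also lower without overlap, at 34.3, 32.8 and 32.9 FPKM in deleted islets, against 38.1, 36.0 and 35.3 FPKM in floxed islets (-0.13 ± 0.07, adjusted p = 0.452), and 9.35% of tested genes were lower without overlap. Of the 3 lists of related genes, 0 members were called. Sums of alpha cell markers and of delta and PP cell markers were apart at this age. The alpha sums were 15890 to 23943 FPKM in deleted islets, against 28989 to 33365 FPKM in floxed islets. The delta and PP sums were 44321 to 58065 FPKM in deleted islets, against 13235 to 19169 FPKM in floxed islets. Most of the delta and PP sum in deleted islets was Ppy, at 34770 to 46530 FPKM, against 7239 to 12270 FPKM in floxed islets. Ppy had the largest difference of these markers (2.04) but was not called. Sst was at 1622 to 1979 FPKM in deleted and 1688 to 1865 FPKM in floxed islets, and Hhex and Rbp4 overlapped between the genotypes too. Of 9 alpha markers 2 were lower, Gcg (-0.65 ± 0.12, SE, limma adjusted p = 0.0175) and Ttr (-0.53 ± 0.10, adjusted p = 0.0160), and of 5 delta and PP markers 1 was higher, Pyy (0.86 ± 0.17, adjusted p = 0.0341). No marker of the other lists was called, and the part of these markers was not tested.

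Both insulin genes, and among the transcription factors Nkx6-1, were higher on the high-fat diet in both genotypes. Against chow at 14 weeks, deleted islets on the high-fat diet had more Nkx6-1, Pdx1 and Pax6 (3 of 10 called higher, 0 lower, with 9.05% and 5.91% of tested genes called higher and lower). Floxed islets on the high-fat diet had more Nkx6-1 and less Isl1 and Neurod1 (1 called higher and 2 lower, with 15.0% and 13.5% of tested genes called higher and lower). In floxed islets these shares of the members are close to those of all tested genes.

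Nkx6-1, which represses alpha cell genes in beta cells and is needed for insulin synthesis, was at 11.2, 12.1 and 13.1 FPKM in deleted islets on the high-fat diet, against 7.48, 10.3 and 8.66 FPKM on chow (0.43 ± 0.11, SE, limma adjusted p = 0.00966). In floxed islets it was at 13.01, 10.99 and 12.9 FPKM on the high-fat diet, against 9.01, 8.04 and 9.97 FPKM on chow (0.41 ± 0.11, adjusted p = 0.00690). The diet groups did not overlap in either genotype. In deleted islets the call was lost without high-fat diet replicate 3 (adjusted p = 0.0501) or chow replicate 1 (0.0663). Ins2 was higher on the high-fat diet by 0.74 ± 0.10 in deleted islets (adjusted p = 6.07e-05) and by 0.81 ± 0.10 in floxed islets (adjusted p = 9.12e-06), and Ins1 by 0.75 ± 0.10 and 0.44 ± 0.10 (adjusted p = 4.22e-05 and 0.00233).

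Pdx1 lay on opposite sides of chow in the 2 genotypes. In deleted islets it was at 29.6, 27.96 and 31.3 FPKM on the high-fat diet, against 23.4, 23.5 and 22.7 FPKM on chow (0.34 ± 0.09, SE, limma adjusted p = 0.0138), a call lost without high-fat diet replicate 3 (adjusted p = 0.0648) or chow replicate 3 (0.0508). In floxed islets it was at 18.1, 20.1 and 19.7 FPKM on the high-fat diet, against 22.1, 21.4 and 25.2 FPKM on chow, a difference of -0.23 ± 0.09 that did not pass (adjusted p = 0.0562) but did without deleted 8-week replicate 1 (0.0498) or floxed 8-week replicate 1 (0.0224) or 2 (0.0454), libraries that enter through the pooled spread, and among genes of at least 5 FPKM in mean (0.0470). The diet groups did not overlap in either genotype. The interaction, that is the genotype difference on the high-fat diet minus that on chow, was 0.57 ± 0.13 (adjusted p = 0.0139).

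Isl1 in floxed islets was at 54.0, 51.7 and 52.7 FPKM on the high-fat diet, against 69.9, 64.5 and 66.9 FPKM on chow (-0.34 ± 0.07, SE, limma adjusted p = 7.58e-04). In deleted islets the diets overlapped, with 73.2, 63.8 and 67.2 FPKM on the high-fat diet and 66.5, 67.8 and 61.6 FPKM on chow (0.06 ± 0.07, adjusted p = 0.608). Its interaction of 0.40 ± 0.09 passed (adjusted p = 0.0198). That call was lost without high-fat diet replicate 1 (adjusted p = 0.0598) or chow replicate 3 (0.0565) of deleted islets, or high-fat diet replicate 2 (0.0519) or chow replicate 1 (0.0592) of floxed islets.

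Neurod1 followed the same order, with 73.6, 67.5 and 71.0 FPKM in floxed islets on the high-fat diet, against 81.3, 82.0 and 90.0 FPKM on chow (-0.25 ± 0.08, SE, limma adjusted p = 0.0235). The call was lost without high-fat diet replicate 2 (adjusted p = 0.0884) or 3 (0.0517) or chow replicate 3 (0.0980). In deleted islets Neurod1 averaged 93.2 ± 2.8 FPKM on the high-fat diet and 85.02 ± 6.81 FPKM on chow (SD, n = 3 each). This difference of 0.13 ± 0.08 did not pass (SE, limma adjusted p = 0.291) but did with library quality weights (0.0359). The Neurod1 interaction of 0.39 ± 0.11 did not pass (adjusted p = 0.0672). It did without floxed 8-week replicate 1 (0.0170), with the compared groups alone in the fit (0.0296) or with library quality weights (0.00944).

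Pax6 in deleted islets was at 57.6, 56.8 and 57.2 FPKM on the high-fat diet, against 50.3, 51.1 and 49.9 FPKM on chow, a tight pair of groups without overlap (0.18 ± 0.06, SE, limma adjusted p = 0.0462). The call lay at the threshold and was lost on leaving out any of the 6 libraries compared (adjusted p of 0.0723 to 0.123) and in 6 of the 12 omissions of another library. In floxed islets Pax6 averaged 49.8 ± 2.2 FPKM on the high-fat diet and 49.8 ± 1.5 FPKM on chow (SD, n = 3 each). Mafa was higher in deleted islets on the high-fat diet without overlap, at 2.72, 3.51 and 3.62 FPKM, against 1.40, 2.22 and 0.924 FPKM on chow. It did not pass (0.79 ± 0.31, SE, limma adjusted p = 0.0983). It did with the 2 groups alone in the fit (0.0143) or with library quality weights (0.03075).

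**Figure D3:**
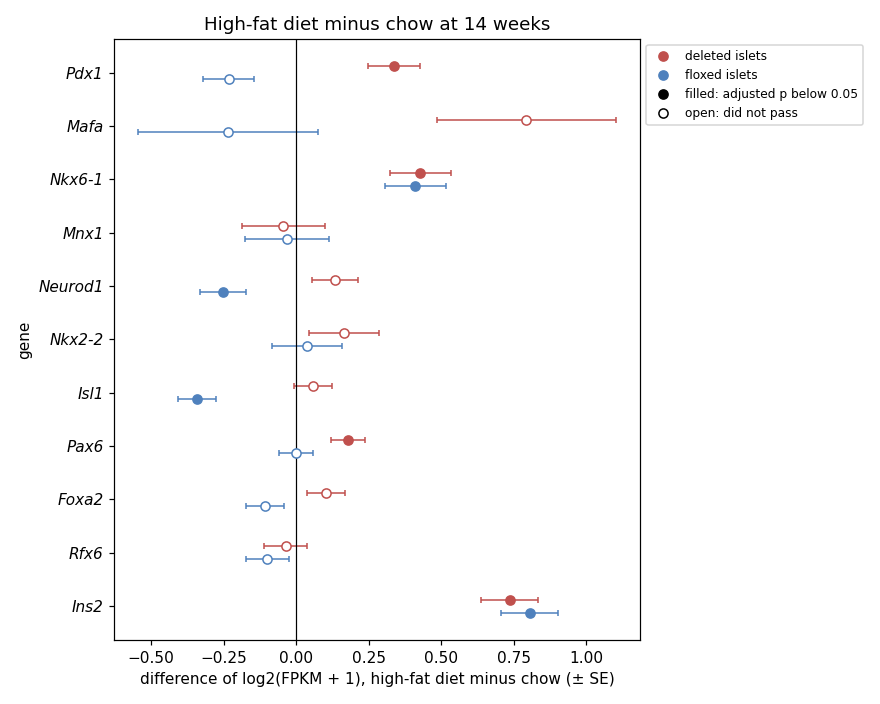
Difference of log2(FPKM + 1), high-fat diet minus chow at 14 weeks (horizontal axis, points with SE bars, limma), for each transcription factor and Ins2 (vertical axis) in deleted and floxed islets, given by colour; filled points passed an adjusted p of 0.05. Ins2 and Nkx6-1 are to the right in both genotypes, and Pdx1, Neurod1 and Isl1 are to the right in deleted and to the left in floxed islets.

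Over the members, 4 were higher without overlap on the high-fat diet in deleted islets (Pdx1, Mafa, Nkx6-1 and Pax6), against 17.4% of tested genes. In floxed islets 1 was higher without overlap (Nkx6-1), against 21.8% of tested genes, and 4 were lower (Pdx1, Neurod1, Isl1 and Foxa2), against 21.5%. Of the 10 interactions of genotype with diet, 2 were called positive, Pdx1 and Isl1, and 0 negative, with 1.42% and 2.11% of tested genes called positive and negative. The interaction shares its libraries with the genotype and diet comparisons and is no separate evidence for them. The interactions ran from -0.01 ± 0.20 for Mnx1 to 1.03 ± 0.44 for Mafa (limma adjusted p = 0.988 and 0.236). For Ins1 and Ins2 the interactions were 0.32 ± 0.14 and -0.07 ± 0.14 and did not pass (adjusted p = 0.233 and 0.859).

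The related lists gave the diet comparison more detail. Among 18 other endocrine transcription factors, 4 were higher and 1 was lower on the high-fat diet in deleted islets, and 0 were higher and 4 lower in floxed islets. Of all tested genes, 9.05% were called higher and 5.91% lower in deleted islets, and 15.0% and 13.5% in floxed islets. In deleted islets Insm1, a zinc finger factor of endocrine cells, was higher by 0.99 ± 0.17 and the forkhead factor Foxo1 by 0.51 ± 0.09 (SE, limma adjusted p = 7.42e-04 and 7.73e-04), and Esrrg, a nuclear receptor of mature beta cells, was lower, at -0.54 ± 0.11 (adjusted p = 0.00280). In floxed islets Hhex (-0.70 ± 0.17, adjusted p = 0.00392), St18 (-0.31 ± 0.09, 0.0139), Esrrg (-0.37 ± 0.11, 0.0180) and Hnf4a (-0.36 ± 0.12, 0.0272) were lower.

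Esrrg lost its floxed call without floxed replicate 2 on the high-fat diet (adjusted p = 0.0882) or on chow (0.0799). Hnf4a lost its call without floxed replicates 2 (0.0656) or 3 (0.0919) on the high-fat diet or 1 (0.131) or 2 (0.0737) on chow. Ldb1, a cofactor of Isl1, was higher on the high-fat diet in deleted islets (0.31 ± 0.06, SE, limma adjusted p = 0.00306) and in floxed islets (0.39 ± 0.06, adjusted p = 2.16e-04). Of 10 cofactors, 3 were higher in deleted islets and 2 in floxed islets, beside 9.05% and 15.0% of all tested genes. In floxed islets this is close to the share of all tested genes. Crebbp and Ep300, a pair of acetyltransferases, were at 0.51 ± 0.09 and 0.44 ± 0.09 in deleted islets (limma adjusted p = 0.00116 and 0.00298). Tle1 was at 0.33 ± 0.10 in floxed islets (adjusted p = 0.0214). Tle1 lost this floxed call without floxed replicate 3 on the high-fat diet (adjusted p = 0.0942) or on chow (0.0775).

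Of 20 target genes, 11 were higher and 0 lower on the high-fat diet in deleted islets, and 5 were higher and 5 lower in floxed islets. The shares over all tested genes were 9.05% higher and 5.91% lower in deleted islets, and 15.0% and 13.5% in floxed islets. In deleted islets Slc2a2 was higher by 0.80 ± 0.09 and Chga, a granule protein, by 0.43 ± 0.06 (SE, limma adjusted p = 1.48e-05 and 1.66e-04). In floxed islets Iapp, the amyloid peptide released with insulin, and Scg5, a granule chaperone, were higher by 0.64 ± 0.08 and 0.49 ± 0.07 (adjusted p = 9.07e-06 and 4.39e-05), and Pcsk2 was lower, at -0.33 ± 0.06 (adjusted p = 4.30e-04).

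Acinar cell markers, genes of the enzyme-secreting tissue around the islets, moved with diet. Of 9 tested markers 7 were lower on the high-fat diet in deleted islets, with sums of 59.5 to 150 FPKM on the high-fat diet and 1120 to 2160 FPKM on chow, and 9 of 9 in floxed islets, with sums of 10.2 to 254 FPKM on the high-fat diet and 764 to 4029 FPKM on chow. The defining marker Cpa1 was above 0 in both diets. With the mean of these markers as a covariate 0 of 10 members were called in either genotype: Nkx6-1 was at 0.41 in deleted islets (limma adjusted p = 0.121) and 0.39 in floxed islets (0.113), Pdx1 at 0.37 in deleted islets (0.0891), and Neurod1 and Isl1 at -0.31 and -0.29 in floxed islets (0.0963 and 0.0537). At 14 weeks the sums of the 2 diets did not overlap, so diet and these markers cannot be told apart.

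Markers of the other islet cells also differed with diet. The shares over all tested genes were 9.05% called higher and 5.91% lower in deleted islets, and 15.0% and 13.5% in floxed islets. Of 9 alpha cell markers 4 were higher and 0 lower on the high-fat diet in deleted islets, and 1 was higher and 2 lower in floxed islets, where the sums were 23570 to 28466 FPKM on the high-fat diet and 37979 to 41234 FPKM on chow. Of 5 delta and PP cell markers 2 were higher in deleted islets and 3 lower in floxed islets, where the sums, mostly Ppy, overlapped between the diets. Sst in floxed islets did not overlap, at 1423 to 1579 FPKM on the high-fat diet and 1885 to 2375 FPKM on chow. Hhex and Rbp4 in floxed islets were also lower on the high-fat diet without overlap. In deleted islets Sst was at 2556 to 2909 FPKM on the high-fat diet and 1349 to 1759 FPKM on chow. Cell cycle genes were higher in 6 of 7 in floxed islets, with sums of 16.6 to 25.2 FPKM on the high-fat diet and 6.61 to 8.25 FPKM on chow, and 0 of 7 were called in deleted islets. Lower on the high-fat diet were 4 of 8 endothelial markers in either genotype, 2 and 6 of 8 macrophage markers, 5 and 2 of 6 fibroblast markers and 1 and 3 of 5 duct markers in deleted and floxed islets, and none of these 4 lists had a marker called higher. For the interaction of genotype with diet 5 alpha markers were positive and 1 negative, 3 delta and PP markers were positive, among them Sst (1.23 ± 0.14, SE, limma adjusted p = 4.68e-05), 5 cell cycle genes were negative, and the remaining lists had 0 calls. The part of these markers in the diet differences and interactions was not tested.

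Between 14 and 8 weeks on chow 0 of 10 members were called by limma in deleted islets, where 2.35% of tested genes were called higher and 0.564% lower at 14 weeks, and 4 members and 1864 genes had an unadjusted p below 0.05. Without overlap, 1 member was higher (Mnx1), against 9.93% of tested genes, and 5 were lower (Pdx1, Neurod1, Pax6, Foxa2 and Rfx6), against 10.3%. Neurod1 was at 77.5, 90.8 and 86.8 FPKM at 14 weeks, against 98.7, 102 and 98.2 FPKM at 8 weeks (-0.23 ± 0.08, SE, limma adjusted p = 0.150). It passed without floxed 8-week replicate 1 (0.0484) or with library quality weights (0.00444). Mnx1 was at 4.49, 4.24 and 4.40 FPKM at 14 weeks, against 3.34, 3.51 and 3.04 FPKM at 8 weeks (0.32 ± 0.14, adjusted p = 0.281).

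In floxed islets Foxa2 was called lower at 14 weeks and no other member was called, beside 3.20% of tested genes called higher and 0.948% lower. Foxa2 was at 31.6, 28.6 and 28.6 FPKM at 14 weeks, against 38.1, 36.0 and 35.3 FPKM at 8 weeks (-0.29 ± 0.07, SE, limma adjusted p = 0.0137). Its groups were apart, but the call was lost without 14-week replicate 2 (adjusted p = 0.0773) or 3 (0.0698), without 8-week replicate 1 (0.0631), or with the 2 groups alone in the fit (0.0560). Nkx6-1, Pax6 and Mnx1 were also lower without overlap, and 12.1% of tested genes were. Pdx1 averaged 22.9 ± 2.0 FPKM at 14 weeks and 28.6 ± 3.9 FPKM at 8 weeks (SD, n = 3 each), a difference of -0.30 ± 0.09 (SE, limma adjusted p = 0.0601). It passed without deleted 8-week replicate 1 (0.0489), without floxed 8-week replicate 1 (0.0121) or with library quality weights (0.00217).

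Mnx1 lay on opposite sides with age in the 2 genotypes, at 3.00, 3.43 and 3.93 FPKM at 14 weeks against 4.49, 4.66 and 4.56 FPKM at 8 weeks in floxed islets (-0.33 ± 0.14, SE, limma adjusted p = 0.230). The interaction of genotype with age was 0.65 ± 0.20 for Mnx1 (adjusted p = 0.239). Of the 10 members 0 were called for this interaction by limma, against 0.196% of tested genes in either direction, with 1 member and 1090 genes at an unadjusted p below 0.05.

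Among related genes the age comparison called 0 of 18 other endocrine transcription factors and 0 of 10 cofactors in either genotype. Slc2a2 was lower at 14 weeks, at -0.37 ± 0.09 in deleted islets and -0.55 ± 0.09 in floxed islets (SE, limma adjusted p = 0.0328 and 0.00174). In deleted islets Ins1 was lower, at -0.37 ± 0.10 (adjusted p = 0.0397), and in floxed islets Slc30a8, the granule zinc transporter, was lower, at -0.32 ± 0.08 (adjusted p = 0.0275). Ins2 did not pass in either genotype, at -0.30 ± 0.10 in deleted and -0.35 ± 0.10 in floxed islets (adjusted p = 0.120 and 0.0505). The deleted calls of Slc2a2 and Ins1 were each lost without 14-week replicate 1 (adjusted p = 0.0993 and 0.105) or 3 (0.0812 and 0.184) or without 8-week replicate 1 (0.140 and 0.160), that of Slc2a2 also without 14-week replicate 2 (0.0832) or 8-week replicate 3 (0.0986), and that of Ins1 also on leaving out some libraries of other groups (0.0504 to 0.0556). Slc30a8 lost its call without 14-week replicates 2 (0.130) or 3 (0.0987) or 8-week replicate 1 (0.152). Acinar markers were higher at 14 weeks in the sums (1120 to 2160 FPKM at 14 weeks against 22.4 to 1038 FPKM at 8 weeks in deleted islets, and 764 to 4029 FPKM at 14 weeks against 63.2 to 180 FPKM at 8 weeks in floxed islets). Delta and PP cell markers had lower sums at 14 weeks in deleted islets, 9241 to 24838 FPKM against 44321 to 58065 FPKM at 8 weeks, with 2 of 5 lower. Most of the sum at 8 weeks was Ppy, at 4321 to 16600 FPKM at 14 weeks and 34770 to 46530 FPKM at 8 weeks. Sst overlapped between the ages in deleted islets, at 1349 to 1759 FPKM and 1622 to 1979 FPKM. Higher at 14 weeks in deleted and floxed islets were 4 and 2 of 9 alpha, 0 and 3 of 9 acinar, 1 and 3 of 5 duct, 1 and 2 of 8 endothelial and 1 and 6 of 8 macrophage markers, and 1 and 0 of 7 cell cycle genes. With the acinar markers as a covariate Foxa2 in floxed islets was at -0.31 (limma adjusted p = 0.0865). Slc2a2 was at -0.44 in deleted (0.0639) and -0.64 in floxed islets (0.0128). Ins1 in deleted islets was at -0.43 (0.0942) and Slc30a8 in floxed islets at -0.41 (0.0702). Of these, Slc2a2 in floxed islets passed. The acinar sums of the 2 ages did not overlap in either genotype, so age and these markers cannot be told apart. The part of the other markers was not tested.

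Over all 6 groups, the moderated F test of limma called 6 of 10 members, Pdx1, Isl1, Foxa2, Neurod1, Nkx6-1 and Pax6 (adjusted p = 2.58e-04, 6.19e-04, 0.00106, 0.00140, 0.00521 and 0.0125), against 40.7% of tested genes. Rfx6, Mnx1, Mafa and Nkx2-2 did not pass (adjusted p = 0.0669, 0.0897, 0.0961 and 0.521). Floxed islets on the high-fat diet were lowest in mean for Pdx1, Neurod1, Isl1, Foxa2 and Rfx6, and for the first 4 their range lay apart from that of the next group, floxed islets at 14 weeks on chow for Pdx1, Neurod1 and Foxa2 and deleted islets at 14 weeks on chow for Isl1. At the upper end, Pdx1 averaged 29.6 FPKM in deleted islets on the high-fat diet and 26.1 and 28.6 FPKM in deleted and floxed islets at 8 weeks, and these 3 groups overlapped. For Mafa, Nkx2-2, Rfx6 and Mnx1 every group overlapped its neighbour in the order of means.

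Set against Ins2, the summed level of the factors was lower on the high-fat diet. The summed level of the 10 members was 364 to 382 FPKM in deleted islets on the high-fat diet and 305 to 312 FPKM in floxed islets on it, 333 to 358 and 333 to 351 FPKM in deleted and floxed islets at 14 weeks on chow, and 369 to 385 and 369 to 412 FPKM at 8 weeks. Per 100000 FPKM of Ins2 the sum was 50.6 to 56.9 in deleted islets and 42.9 to 43.9 in floxed islets on the high-fat diet, against 75.6 to 93.6 in deleted and 78.5 to 92.6 in floxed islets at 14 weeks on chow. The diet groups were apart in each genotype, and this ratio carries the rise of Ins2 itself.

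By gene, Isl1 per 100000 FPKM of Ins2 was 9.84 ± 1.02 in deleted islets and 7.38 ± 0.11 in floxed islets on the high-fat diet, against 15.7 ± 1.3 and 16.5 ± 1.8 at 14 weeks on chow (SD, n = 3 each). Pdx1 was 4.28 ± 0.35 and 2.70 ± 0.20 on the high-fat diet, against 5.60 ± 0.64 and 5.58 ± 0.27 on chow. Mafa in deleted islets was the exception, at 0.473 ± 0.061 on the high-fat diet, against 0.353 ± 0.109 on chow. Of the other members, Nkx6-1 had ratios closest to those on chow, with 1.75 ± 0.13 and 1.72 ± 0.12 on the high-fat diet, against 2.11 ± 0.31 and 2.197 ± 0.197 on chow, in deleted and floxed islets each time. These ratios are given as a description, without a test.

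**Figure D4:**
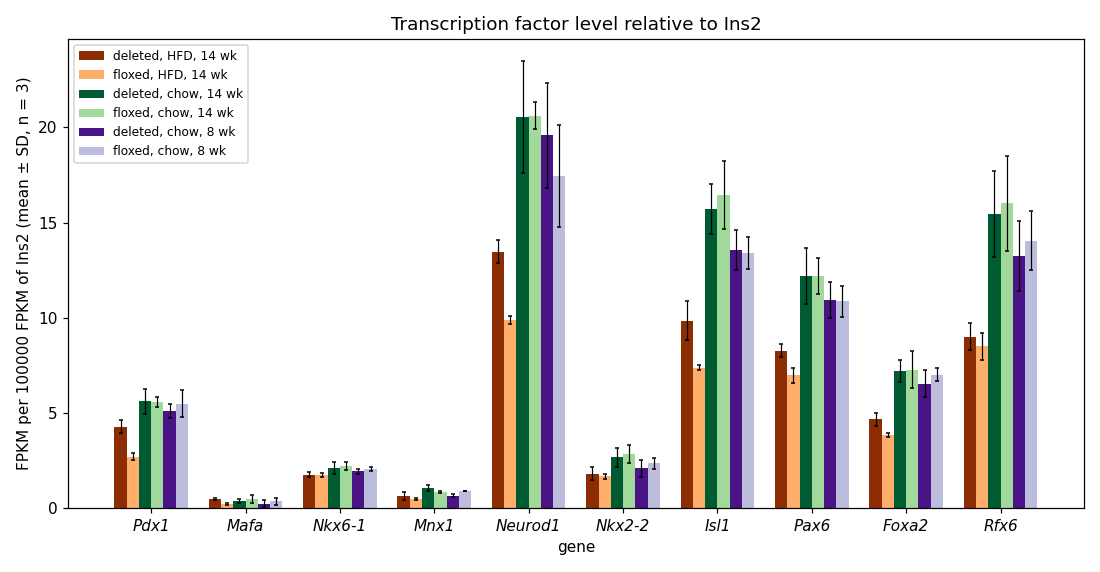
FPKM of each transcription factor per 100000 FPKM of Ins2 (vertical axis, from 0) in the 6 groups, given by colour; bars are means and lines the SD of 3 libraries. For every member but Mafa the means of both high-fat diet groups lie below those of the 4 chow groups. For Nkx6-1 the 6 groups are closer in ratio than for Neurod1, Isl1, Pax6, Foxa2 and Rfx6.

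Within groups, libraries with more Ins2 did not have detectably more of any factor. Over the 18 libraries, with each group's mean taken off, Pearson's r with Ins2 was 0.56 for Nkx6-1 (exact permutation within groups, 46656 arrangements, two-sided p = 0.0952, adjusted over the 10 members 0.397; Spearman's rho 0.61, p = 0.0441, adjusted 0.315). For Pdx1 r was 0.40 (exact permutation p = 0.0360, adjusted 0.360; rho 0.41, p = 0.0946, adjusted 0.315). The lowest r was -0.34 for Nkx2-2 (exact p = 0.239, adjusted 0.399; rho -0.34, p = 0.224, adjusted 0.531). None of 10 passed after adjustment, and 1 of 10 had an unadjusted p below 0.05 by r.

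The r for the remaining 7 members ran from -0.28 for Rfx6 to 0.40 for Isl1, with adjusted exact permutation p from 0.397 to 0.868 and adjusted p of rho from 0.315 to 0.688. Without the 2 libraries farthest from the median of Ins2, r was 0.66 for Nkx6-1 (exact permutation p = 0.0353) and 0.41 for Pdx1 (p = 0.0818), neither adjusted.

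**Figure D5:**
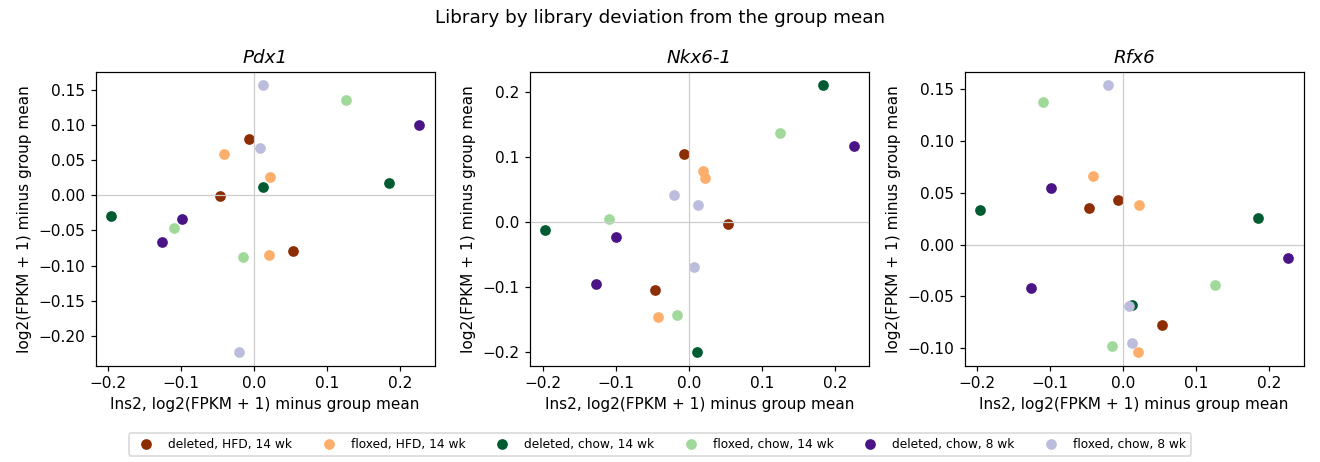
Deviation of each library from its group mean in log2(FPKM + 1), for Pdx1, Nkx6-1 and Rfx6 (vertical axes) against Ins2 (horizontal axis), with groups given by colour. Points of Nkx6-1 lean upward with Ins2 (r of 0.56), those of Pdx1 less so (0.40), and those of Rfx6 lean the other way (-0.28); none passed after adjustment.

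Across the 18 libraries the members fell into those that varied together and those that did not, given here as a description in which group differences and shared library effects are mixed. Pearson's r between members was highest for Neurod1 with Isl1 (0.789) and Isl1 with Foxa2 (0.787), and it was 0.757 for Pax6 with Foxa2 and 0.692 for Pdx1 with Isl1. Nkx6-1 had r of -0.301 with Isl1 and 0.097 with Pdx1, and Mafa had r of -0.404 with Rfx6.

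Among 8166 genes with a mean of at least 5 FPKM, the genes whose log2 levels most resembled each member over the 18 libraries were Ppp1r1a for Pdx1 (r of 0.853), Sytl4, a granule-associated protein, for Isl1 (0.919), Lysmd3 for Neurod1 (0.893), Epcam, an epithelial adhesion molecule, and Gch1 for Pax6 (0.962 and 0.951), Cnot7 for Foxa2 (0.892) and Phtf1 for Rfx6 (0.853). For Nkx6-1 they were Cox7a2l (0.904), Ins2 itself (0.891) and Vkorc1 (0.890). The best matches of Mafa (Fam46c, 0.778), Mnx1 (Uqcc1, 0.730) and Nkx2-2 (Magee1, 0.703), the members with the widest spread within groups, were weaker.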

How the data were processed

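RNA of isolated islets was measured in 18 libraries, made with miRNeasy extraction, SMART-Seq HT and Nextera kits, per the labels' protocols. The authors deposited gene-level FPKM for each library; per the submitters' processing notes Cufflinks 2.2.1, Bowtie2 2.2.3, TopHat2 2.0.13, SAMtools 0.1.19 and mm10 were used. The annotation is not given in the sources used here, and the unit was read from Cufflinks and the values. FPKM look rescaled between libraries (median ratios to the geometric mean library of 1.0037 to 1.0079), so differences are relative to the typical gene. FPKM hold no counts, so depth and counting error are unknown.

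Genes at 1 FPKM or more in at least 3 libraries were kept, and log2(FPKM + 1), a scale that understates changes of low genes, was fitted with limma 3.58.1 (R 4.3.3, statmod 1.5.0; trend, robust, 6 group means), with Benjamini-Hochberg adjustment over 12234 genes. Relations with Ins2 were tested by exact permutation within groups. Both were tested on simulated data. Python 3.11.15, numpy 2.4.6, pandas 2.3.3, scipy 1.17.1 and matplotlib 3.10.9 were used.

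Named throughout were the 10 members, Ins1, Ins2 and Cdh13; in each comparison, up to 4 called genes of each related list with the smallest p, apart from 2 that are not reported here; and for each member up to 3 genes most like it. The members and lists were chosen with earlier results of these data known. Alternatives were a pseudocount of 0.1, no filter, a mean level of 5 FPKM or more as the filter, quantile normalization, scaling by the median ratio, library quality weights, the compared groups alone, the replicate number as a block, acinar markers as a covariate, and each library left out (a group of 2 is then assumed to vary like the others).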

Additional observations from a re-analysis of the deposited data

Results flagged for a closer look

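The genotype difference on the high-fat diet differed from that on chow at 14 weeks, by the interaction term of limma at an adjusted p below 0.05 over all tested genes, for 2 of the 10 transcription factors and for 7 named genes of the related lists. Of all tested genes, 1.42% were called positive and 2.11% negative for this term. Each value is the difference of log2(FPKM + 1) between deleted and floxed islets on the high-fat diet minus that on chow, with its SE. For Pdx1 it was 0.57 ± 0.13 (limma adjusted p = 0.0139) and for Isl1 0.40 ± 0.09 (adjusted p = 0.0198). The Isl1 call was lost without deleted high-fat diet 1 (0.0598), deleted chow 3 (0.0565), floxed high-fat diet 2 (0.0519) or floxed chow 1 (0.0592). Markers of other cell types were called for the same term: of 9 alpha cell markers 5 were positive and 1 negative, of 5 delta and PP cell markers 3 were positive, among them Sst (1.23 ± 0.14, limma adjusted p = 4.68e-05) and Rbp4 (1.26 ± 0.13, adjusted p = 1.97e-05), and of 7 cell cycle genes 5 were negative. Irx2 and Hhex are themselves in the alpha and delta lists, and the part of these markers in the values here was not tested.

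Among the other transcription factors it was 1.04 ± 0.21 for Irx2 (limma adjusted p = 0.00888), 1.11 ± 0.24 for Hhex (0.0106) and 0.49 ± 0.13 for Foxo1 (0.0349). Hhex had a mean of 9.44 FPKM in deleted islets, against 4.29 FPKM in floxed islets, on the high-fat diet, and of 6.89 FPKM in deleted islets, against 7.78 FPKM in floxed islets, on chow. Among the target genes it was 1.05 ± 0.13 for Slc2a2 (9.78e-05), 1.58 ± 0.23 for Nnat (5.67e-04), 0.45 ± 0.08 for Pcsk2 (0.00405) and 0.62 ± 0.15 for Ffar1, a fatty acid receptor (0.0271). Slc2a2 had a mean of 53.6 FPKM in deleted islets, against 25.3 FPKM in floxed islets, on the high-fat diet, and of 30.2 FPKM in deleted islets, against 30.4 FPKM in floxed islets, on chow. The Foxo1 call was lost without any of the deleted high-fat diet libraries 1, 2 and 3 (adjusted p = 0.0598, 0.0880 and 0.0570), deleted chow 3 (0.0956), floxed high-fat diet 2 or 3 (0.0750 and 0.0901) or floxed chow 1 or 2 (0.0964 and 0.0545), and the Ffar1 call without deleted high-fat diet 3 (0.0664), deleted chow 3 (0.0591), floxed high-fat diet 3 (0.0729) or floxed chow 1 or 3 (0.0551 and 0.0641).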

How the results depend on the processing

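Of the comparisons of members, that between genotypes on the high-fat diet gave 5 calls in each alternative that kept all libraries, although with the 2 groups alone in the fit Foxa2 was lost and Mafa gained; without single libraries it gave 3 to 5, with 3 on leaving out deleted replicate 1 or 2 or floxed replicate 2 or 3. High-fat diet against chow in deleted islets gave 5 calls with sample quality weights, 0 with the acinar covariate and 0 to 3 without single libraries (0 without high-fat diet replicate 3, and 1 without chow replicate 1 or 3), beside 3; in floxed islets it gave 0 with the acinar covariate, beside 3. Age in deleted islets gave 1 call with quality weights and 0 to 1 without single libraries, beside 0 (Neurod1, without floxed 8-week replicate 1). Age in floxed islets gave 3 with quality weights, 0 with the acinar covariate, 0 with the 2 groups alone and 0 to 2 without single libraries (2 without deleted 8-week replicate 1, and 0 without chow 14-week replicate 2 or 3), beside 1. The genotype and diet interaction gave 1 to 3 without single libraries, with 1 where the Isl1 call was lost, beside 2. Why these counts moved was not tested.

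Signs changed for few reported values. Chga in deleted islets on the high-fat diet was at -0.12 under quantile normalization, and the Mnx1 interaction of genotype with diet at 0.0083 with the acinar covariate. Without single libraries, genotype differences on the high-fat diet ran from -0.091 to 0.033 for Nkx6-1, -0.059 to 0.16 for Nkx2-2 and -0.014 to 0.076 for Rfx6, those on chow at 14 weeks from -0.022 to 0.09 for Pdx1 and -0.40 to 0.027 for Mafa, and the Mnx1 interaction from -0.23 to 0.16. Of 73 further uncalled values that are not printed, 35 changed sign in some setting, at sizes of at most 0.18. Quantile normalization fixes the most abundant genes, so Ins1, Ins2, Iapp and the relations with Ins2 have no value under it. Other calls that were lost, with their adjusted p, were those of Abcc8 on the high-fat diet with no filter (0.0539) and quantile normalization (0.170), of the Foxo1 and Ffar1 interactions with no filter (0.0546 and 0.0593), of Ep300, Esrrg, Hnf4a and Tle1 with diet under the acinar covariate (0.0800, 0.134, 0.165 and 0.351), of Pax6 with diet in the compared groups alone (0.0536), and of age for Slc2a2, Ins1 and Slc30a8 in the compared groups alone (0.0883, 0.308 and 0.0588), with no filter (0.0708, 0.0724 and 0.0545) and under the acinar covariate (0.0639, 0.0942 and 0.0702), and for Slc30a8 under quantile normalization (0.0506).

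Replicate numbers are shared by the groups, but the labels do not say that they pair the samples. Deviations of libraries with the same number had a median correlation of 0.0413 (-0.159 to 0.232, 45 pairs) and those with different numbers -0.0159, and 14 of 18 libraries were on average closest to their own number. With the replicate block, members called were 5 between genotypes on the high-fat diet, 3 and 3 with diet in deleted and floxed islets, 0 and 1 with age, 2 for the genotype and diet interaction and 6 over the 6 groups, as without it; of the named calls that of Ins1 with age in deleted islets was lost (adjusted p = 0.0666).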
